A study of Mus musculus with 5 samples.

Results

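The non-coding snoRNA host genes Gas5 and Snhg were examined in ribosome footprints of mouse embryonic stem cells (mESCs). All transcripts, of any transcript type, whose gene symbol in the Gencode annotation was Gas5, Snhg1, Snhg3, Snhg4, Snhg5, Snhg6, Snhg8, Snhg12, Snhg15 or Snhg20 were taken. This gave 76 of the 135276 transcripts measured, from 9 of the 10 genes. Snhg4 had no transcript under that symbol and was not analysed here. Gas5 had 25 transcripts, Snhg1 had 18, Snhg12 had 7, Snhg5 had 6, Snhg3 and Snhg6 had 5 each, Snhg15 had 4, and Snhg8 and Snhg20 had 3 each. They fell into 38 retained-intron transcripts, all of Gas5, Snhg1, Snhg5 or Snhg8, and 38 spliced transcripts, meaning every other type. Within the same genes and on the same strand lay 31 transcripts of 29 small RNA genes, all snoRNAs except the scaRNA Gm26083.

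Snhg genes make long RNAs whose introns carry snoRNAs, small RNAs that stay in the nucleolus and guide chemical modification or cleavage of ribosomal RNA. C/D box snoRNAs guide methylation, H/ACA box snoRNAs guide pseudouridylation, and scaRNAs do the same for spliceosomal RNAs in Cajal bodies. The spliced host RNA reaches the cytoplasm, where ribosomes engage its short reading frames, and Gas5 and related hosts are known targets of nonsense-mediated decay (NMD), which is coupled to translation. A retained-intron isoform keeps an intron as exon and may therefore contain the snoRNA sequence itself.

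The comparison was between AHARIBO RIBO-seq (2 libraries), in which ribosomes are caught through nascent peptides that carry the methionine analogue AHA, and standard RIBO-seq (3 libraries), in which ribosomes are pelleted through a cushion of 30% sucrose. The cells grew undifferentiated with LIF, the labels call all 5 libraries untreated biological replicates, and the methods name the line 46C for the other mESC experiments. The AHARIBO protocol of the study depletes methionine and then feeds AHA to the cells. Its ribosome profiling methods do not state this step for either group, so it may differ between them. All cells received cycloheximide, RNase I (1.3 U, 45 min, with sBlock) trimmed every lysate to footprints, and fragments of 25 to 35 nt were sequenced in runs of 50 bp. Capture used a biotin conjugate and magnetic beads, with no cushion described, so that the methods differ in more than the nascent peptide and these differences cannot be told apart. The bulk libraries also cannot tell fewer ribosomes per RNA from less RNA.

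The libraries held 6403651 to 9110668 counts in standard RIBO-seq and 9972892 to 11150527 in AHARIBO RIBO-seq. Levels are given in CPM (counts scaled to library totals adjusted by TMM factors), and 3 counts, the floor taken here, corresponded to 0.262 to 0.476 CPM. Removal of duplicates had taken 43.3% to 47.7% of all reads. The 8 pluripotency markers examined were present in every library, from 60.4 CPM for Klf4 to 276 CPM for Pou5f1. Of 12 markers of neurons, endoderm and fibroblasts, Tubb3 was highest at 31.7 to 36.8 CPM, the others stayed at or below 4.72 CPM, and Afp was at most 0.0875 CPM.

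A footprint of 25 to 35 nt often matches several isoforms. The deposited values show that such a read was counted in full on each. The 2 annotated transcripts of Snord80 had equal counts in 5 of 5 libraries, as did the 2 of Snora16a. Isoforms of 1 gene are therefore not independent measurements, and a host transcript whose exons contain a snoRNA includes the reads of that snoRNA. Exons were compared with snoRNA positions, and at least 20 nt of a snoRNA within an exon was taken as covering it. By this measure 41 host transcripts covered a snoRNA (33 retained-intron and 8 spliced), 30 covered none (5 retained-intron and 25 spliced), and 5 had another length in the annotation used here and were left undetermined.

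The sequences below show the RNAs on which the results turn. The first set holds 5′ ends of spliced host transcripts that another isoform lacks, on which the comparison of isoform pairs turns. The sequences are from the Gencode M21 transcripts of GRCm38, 5′ to 3′, and the capitals mark the longest reading frame from an ATG to its stop codon that closes within the stretch. In Snhg6 no frame closed, and the capitals mark the frame that runs on past it.
Snhg6, first 98 nt of ENSMUST00000182742.1 (chr1:9942025-9944117, minus strand): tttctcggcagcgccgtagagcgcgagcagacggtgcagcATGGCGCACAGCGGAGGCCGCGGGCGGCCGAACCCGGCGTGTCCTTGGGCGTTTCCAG
Gas5, first 182 nt of ENSMUST00000159663.7 (chr1:161035166-161038539, plus strand): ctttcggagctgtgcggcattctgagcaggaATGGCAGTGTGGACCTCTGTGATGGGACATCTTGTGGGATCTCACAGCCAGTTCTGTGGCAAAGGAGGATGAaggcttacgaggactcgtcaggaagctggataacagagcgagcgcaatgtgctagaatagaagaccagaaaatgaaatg
Snhg15, first 282 nt of ENSMUST00000147762.7 (chr11:6525591-6528760, minus strand): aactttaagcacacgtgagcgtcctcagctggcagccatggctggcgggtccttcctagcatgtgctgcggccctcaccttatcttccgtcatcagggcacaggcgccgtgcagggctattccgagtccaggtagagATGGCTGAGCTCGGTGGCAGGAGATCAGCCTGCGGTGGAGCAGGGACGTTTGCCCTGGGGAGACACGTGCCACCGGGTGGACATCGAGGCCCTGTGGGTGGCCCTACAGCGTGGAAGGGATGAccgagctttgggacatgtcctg

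The Gas5 frame spans nt 32 to 103 with 23 codons before its stop, that of Snhg15 spans nt 138 to 260 with 40 codons, and that of Snhg6 spans nt 41 to 202 with 53 codons. Such a frame is no rarity. A frame that closes within the same first stretch was found in 62.3% of the annotated transcripts of at least 182 nt and in 81.7% of those of at least 282 nt. Whether ribosomes used these frames was not tested, since the counts give no position within a transcript.

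The second set holds small RNAs inside the host genes, chosen from those called higher, with Snord80 as an abundant C/D snoRNA that did not pass the test. Capitals mark TGATGA (box C) starting within the first 20 nt together with CTGA (box D) starting within the last 20 nt, or ACA starting 4 to 8 nt from the 3′ end (the ACA box). The strand of the RNA was searched. Of the 1558 annotated snoRNA and scaRNA transcripts, 20.2% held the first pair and 45.8% held the ACA. Gm25894 did not hold the pair, since TGATGA was not found in its window.
Gm26083, scaRNA in Snhg20 (chr11:117077243-117077435, plus strand): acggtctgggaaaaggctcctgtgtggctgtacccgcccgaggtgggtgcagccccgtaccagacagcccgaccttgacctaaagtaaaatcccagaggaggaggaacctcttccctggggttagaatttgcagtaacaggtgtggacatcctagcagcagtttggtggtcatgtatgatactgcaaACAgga
Snora61, in Snhg12 (chr4:132310240-132310369, plus strand): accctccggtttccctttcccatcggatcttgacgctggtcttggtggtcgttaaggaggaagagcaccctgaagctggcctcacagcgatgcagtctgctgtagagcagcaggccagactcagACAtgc
Snora16a, in Snhg12 (chr4:132309465-132309600, plus strand): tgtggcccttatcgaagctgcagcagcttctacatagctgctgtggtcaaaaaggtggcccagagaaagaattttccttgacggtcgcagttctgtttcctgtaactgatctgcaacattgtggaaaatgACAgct
Gm25894, in Snhg1 (chr19:8724251-8724325, plus strand): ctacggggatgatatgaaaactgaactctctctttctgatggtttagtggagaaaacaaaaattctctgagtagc
Gm25789, in Gas5 (chr1:161038308-161038383, plus strand): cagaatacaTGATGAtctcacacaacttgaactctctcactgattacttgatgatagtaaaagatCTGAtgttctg
Snord80, in Gas5 (chr1:161037604-161037680, plus strand): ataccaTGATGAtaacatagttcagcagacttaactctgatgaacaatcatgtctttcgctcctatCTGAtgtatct

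Calls of higher values in AHARIBO RIBO-seq fell mostly on host transcripts that contained a snoRNA, and the snoRNAs tested had a median above that of all transcripts. Some of these snoRNAs were tested only through their AHARIBO values, as given below. Of the 76 host transcripts, 71 reached 1 CPM in at least 1 library and were tested, of which 21 were called higher with AHARIBO and 3 lower, taking an adjusted p under 0.05 (edgeR quasi-likelihood test, Benjamini-Hochberg over all 66972 transcripts tested). Over all transcripts tested, 2.27% were called higher and 2.24% lower. The median log2 fold change of the host transcripts was 0.14, against 0.0022 over all transcripts. Of the 41 that covered a snoRNA, 19 were higher and 0 lower (27 and 0 at an unadjusted p under 0.05), with a median of 0.94. Among the 26 tested that covered none, 1 was higher and 3 were lower, with a median of -0.08. The pooled medians mix genes. In Snhg1, 10 of 15 transcripts with a snoRNA and 1 of 3 without were higher, with medians of 0.95 and 0.32. In Gas5, 4 of 17 with a snoRNA and 0 of 8 without were higher, with medians of 0.07 and -0.12. Both AHARIBO libraries were above all standard libraries for 27 of the 41 transcripts with a snoRNA and for 2 of the 26 without, where 17.3% of all transcripts were above, and they were below for 1 and 6, where 16.5% of all transcripts were below. These transcripts share reads, and no test of the difference between the kinds was made. Without AHARIBO replicate 2, 12 host transcripts were called higher and 0 lower, and with 1 transcript per gene 4 were higher and 1 lower.

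By splicing type, calls of higher values included both kinds. Of the 38 retained-intron transcripts, 14 were called higher and 0 lower (21 and 1 at an unadjusted p under 0.05), with a median log2 fold change of 0.55, and 8 were called without AHARIBO replicate 2. Among retained-intron transcripts of all genes, 1.48% were called higher and the median was -0.0032. Retained-intron transcripts that covered no snoRNA (5, all tested) had 0 calls (1 at an unadjusted p under 0.05, 0 by DESeq2) and a median of -0.12, and the 33 that covered a snoRNA had 14 calls and a median of 0.70. Spliced transcripts had a median of -0.06 for the 21 tested without a snoRNA and of 1.15 for the 8 with a snoRNA, of which 5 were called higher. Over all spliced host transcripts 10 were called, and 5, 5 and 4 without standard replicate 1, AHARIBO replicate 1 and AHARIBO replicate 2.

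**Figure D1:**
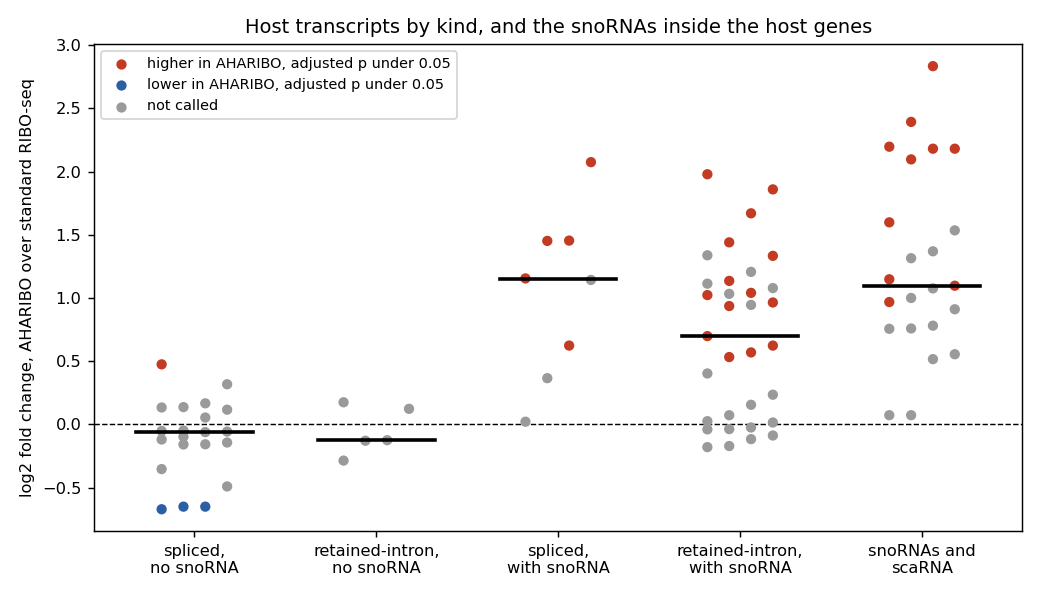
The log2 fold change of AHARIBO over standard RIBO-seq for each tested host transcript, by splicing type and by whether its exons cover a snoRNA, and for the snoRNAs inside the host genes. Each point is a transcript, black bars are medians (from left -0.06, -0.12, 1.15, 0.70 and 1.10), the dashed line is the median of all transcripts, and the classes with a snoRNA lie higher.

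Gas5, growth arrest specific 5, binds the glucocorticoid receptor as an RNA and hosts several C/D snoRNAs. The spliced transcript with the highest mean over the 5 libraries, ENSMUST00000162558.7 (chr1:161035163-161038537, 12 exons), measured 15.0, 15.6 and 17.9 CPM in the standard libraries and 15.0 and 15.98 CPM in AHARIBO RIBO-seq. The ranges overlapped, and the log2 fold change was -0.05 ± 0.12 (SE, adjusted p = 0.864, edgeR). Per length it was among the most heavily occupied RNAs of the group. The Gas5 transcript with the highest level per kb and no snoRNA, ENSMUST00000159663.7, had 45.3 ± 4.34 CPM per kb (SD, n = 3) in standard RIBO-seq, above 95.1% of the 34249 protein-coding transcripts tested, whose median was 3.95 CPM per kb. The value in AHARIBO RIBO-seq was 41.4 ± 2.72 CPM per kb (SD, n = 2), above 94.9% of them.

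The retained-intron isoforms of Gas5 divided by where they start. The division at 1000 nt from the 5′ end of the gene was chosen after the values were seen. The 18 Gas5 transcripts that start within this distance, spliced or not, had log2 fold changes of -0.29 to 0.16, and 0 were called (edgeR, with 1 at an unadjusted p under 0.05 and 0 by DESeq2). Among them was the retained-intron isoform with the highest mean over the 5 libraries, ENSMUST00000161229.7, which covers 6 snoRNAs and measured 16.7, 16.4 and 19.0 CPM against 17.1 and 21.6 CPM (adjusted p = 0.493, edgeR). The 7 that start further on, all retained-intron and all covering a snoRNA, had log2 fold changes of 1.03 to 1.98, with both AHARIBO libraries above all standard ones in each of the 7, and 4 were called higher. These isoforms were scarce, with means of 0.618 to 2.15 CPM in standard RIBO-seq. ENSMUST00000161623.7, ENSMUST00000159399.7 and ENSMUST00000160516.1 reached the 1 CPM needed for testing only in AHARIBO libraries.

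Of the late-starting Gas5 isoforms, ENSMUST00000160516.1 (chr1:161037781-161038539) had the largest difference. It measured 0.448, 0.773 and 0.635 CPM in standard RIBO-seq and 2.19 and 2.80 CPM in AHARIBO RIBO-seq. The groups stood clearly apart, and the isoform was 3.94-fold higher (log2 1.98 ± 0.40 SE, adjusted p = 0.00138, edgeR). Closely nested with it, ENSMUST00000159399.7 and ENSMUST00000160551.1 were 3.63-fold (adjusted p = 0.00219) and 3.18-fold higher (adjusted p = 0.000205). All of these contain Gm25789, the last snoRNA of the gene. Gm25789 itself measured 0.336, 0.221 and 0.159 CPM against 1.22 and 1.50 CPM, and was 5.25-fold higher (log2 2.39 ± 0.62 SE, adjusted p = 0.016, edgeR), on counts of only 1 to 3 per standard library. Reads of ENSMUST00000160516.1 beyond those of Gm25789 numbered 1, 5 and 3 in standard RIBO-seq and 11 and 13 in AHARIBO RIBO-seq, a remainder that was also higher in both AHARIBO libraries. ENSMUST00000160497.1, which covers the snoRNA Gm22357, was 2.06-fold higher (adjusted p = 0.00681, edgeR). The 3 isoforms with Gm25789 stayed called with any 1 library left out. Gm25789 itself was not called without standard replicate 1 or 2 (adjusted p = 0.0523 and 0.0504) or AHARIBO replicate 1 or 2 (0.146 and 0.102), nor ENSMUST00000160497.1 without standard replicate 2 or AHARIBO replicate 1.

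Snord80 and other Gas5 snoRNAs did not pass the test. Snord80 guides methylation of the large ribosomal RNA and measured 1.34, 2.10 and 1.75 CPM against 1.57 and 2.10 CPM, with overlapping ranges (log2 0.07 ± 0.33 SE, adjusted p = 0.94, edgeR). Duplicate removal had taken 84.1% of its reads in standard RIBO-seq and 88.6% in AHARIBO RIBO-seq. Gm22357 (mean 1.50 against 2.52 CPM), Gm26224 (0.883 against 1.39 CPM) and Mir5117, annotated as a snoRNA gene (0.528 against 1.43 CPM), had adjusted p-values of 0.172, 0.6 and 0.123. Gm22489 had 0 counts in all libraries, and Gm23212, Snord78 and Snord47 stayed under 1 CPM.

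Snhg1 was the host with the largest number of calls, 11 of its 18 transcripts being higher and 0 lower. The full-length spliced ENSMUST00000206155.1 (chr19:8723475-8726443, 10 exons) measured 12.8, 10.5 and 11.6 CPM in standard RIBO-seq and 13.1 and 15.98 CPM in AHARIBO RIBO-seq. The groups did not overlap, but by a small distance, and the log2 fold change of 0.32 ± 0.13 (SE) missed the threshold (adjusted p = 0.149, edgeR). The spliced isoform with the highest mean over the 5 libraries, ENSMUST00000205909.1, covers Gm25855 and measured 13.4, 11.4 and 12.2 CPM against 14.7 and 17.3 CPM (log2 0.37 ± 0.12 SE, adjusted p = 0.073), and with duplicates kept was called higher (log2 0.75, adjusted p = 0.0111). The most abundant retained-intron isoform, ENSMUST00000205539.1, covers 6 snoRNAs and measured 12.3, 11.7 and 10.9 CPM against 15.9 and 22.5 CPM, 1.62-fold higher (adjusted p = 0.000344). ENSMUST00000206519.1, of 2 exons and 7 snoRNAs, measured 9.41, 8.83 and 8.41 CPM against 14.9 and 20.3 CPM and was 1.95-fold higher (log2 0.96 ± 0.13 SE, adjusted p = 1.62e-06, edgeR). AHARIBO replicate 2 was the higher in each of these, and both replicates exceeded the standard libraries.

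The remaining called Snhg1 isoforms were 1.39-fold to 2.71-fold higher. ENSMUST00000206383.1, which covers Gm22744 and Snord22, was 2.71-fold higher (adjusted p = 0.025, edgeR), ENSMUST00000206255.1 was 2.52-fold higher (adjusted p = 0.0347) and ENSMUST00000206462.1 was 2.20-fold higher (adjusted p = 0.000383). ENSMUST00000205576.1, ENSMUST00000206926.1, ENSMUST00000206135.1, ENSMUST00000205274.1 and ENSMUST00000206961.1 were 2.03-, 1.91-, 1.54-, 1.48- and 1.45-fold higher. ENSMUST00000205825.1, spliced and without a snoRNA, was the sole host transcript of that kind called higher, by 1.39-fold (7.62 to 9.52 CPM against 10.1 and 13.4 CPM, adjusted p = 0.0447, edgeR). In the 2 called isoforms whose exons hold a single snoRNA in full, that snoRNA was a small part of the counts and the mean of the rest was higher with AHARIBO too. In ENSMUST00000206961.1, Gm23246 held 1.35% to 5.88% of the counts in standard and 5.41% and 7.75% in AHARIBO RIBO-seq, and the counts beyond it were 7.51 ± 0.728 CPM (SD, n = 3) against 10.5 ± 1.91 CPM (SD, n = 2). In ENSMUST00000206135.1, Gm24452 held 1.27% to 9.38% and 9.52% and 14.1%, and the counts beyond it were 7.59 ± 1.17 against 10.8 ± 1.14 CPM. These remainders were not tested. The 12 Snhg1 transcripts that start within the first 1000 nt had a median log2 fold change of 0.55, and the 6 that start later had 1.14, with 8 and 3 of them called higher. ENSMUST00000206519.1, ENSMUST00000205576.1, ENSMUST00000206462.1 and ENSMUST00000206926.1 stayed called with any 1 library left out. The other 7 were each lost without AHARIBO replicate 2, ENSMUST00000206961.1, ENSMUST00000205825.1, ENSMUST00000206383.1 and ENSMUST00000206255.1 also without standard replicate 1, and the last 2 of these also without AHARIBO replicate 1 and with duplicates kept. ENSMUST00000206961.1, ENSMUST00000205825.1 and ENSMUST00000206255.1 were also lost without standard replicate 2, and ENSMUST00000205825.1 without standard replicate 3.

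Of the snoRNAs of Snhg1, Gm25894 and Gm24452 were called higher. Gm25894 measured 0.224, 0.110 and 0.159 CPM in standard RIBO-seq, where it had 1 or 2 counts per library, and 1.40 and 1.10 CPM in AHARIBO RIBO-seq. It was 7.13-fold higher (log2 2.83 ± 0.70 SE, adjusted p = 0.0108, edgeR), the largest fold change among the small RNAs tested here and an imprecise one. Gm24452 was 4.27-fold higher (0.112, 0.662 and 0.159 against 1.05 and 1.90 CPM, adjusted p = 0.0289). Gm25855, Gm22680 and Gm24453 had log2 fold changes of 0.91 ± 0.34, 1.08 ± 0.40 and 0.76 ± 0.70 (SE) and did not pass the test (adjusted p = 0.113, 0.109 and 0.615, edgeR). With duplicates kept, Gm25855 and Gm22680 were called higher (adjusted p = 0.00469 and 0.048, edgeR) and Gm24452 was not (log2 2.70 against 2.10 without duplicates, adjusted p = 0.057). Gm25894 was not called without AHARIBO replicate 1, and Gm24452 was called with standard replicate 2 left out but with no other library left out. Gm22744, Gm23246 and Snord22 were below 1 CPM.

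**Figure D2:**
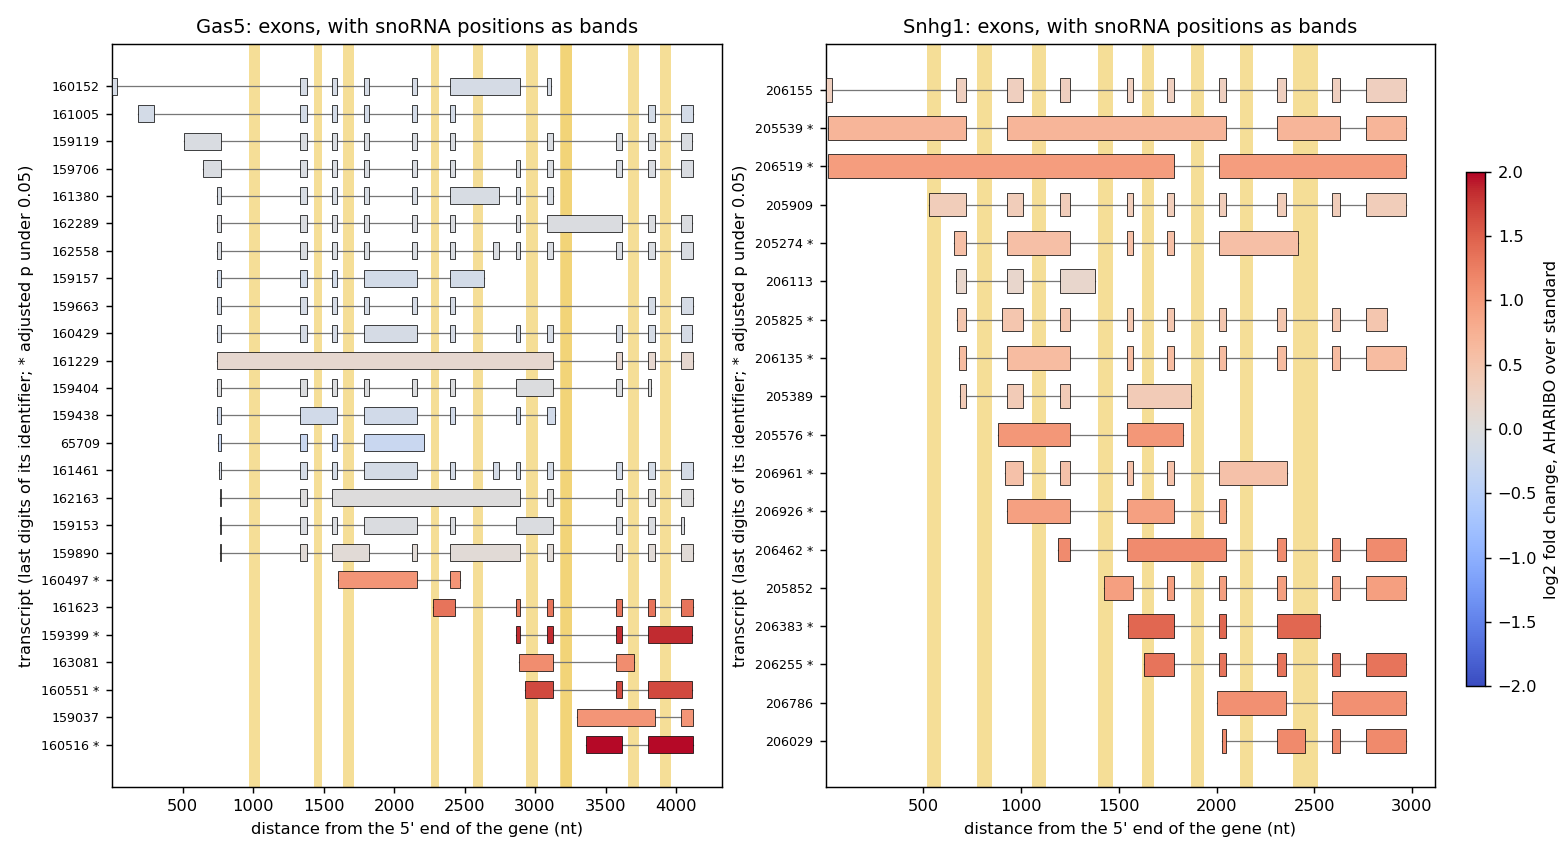
Exons (boxes) of the 25 Gas5 and 18 Snhg1 transcripts by distance in nt from the 5′ end of the gene, coloured by the log2 fold change of AHARIBO over standard RIBO-seq, with the snoRNAs as vertical bands and called transcripts marked by an asterisk. Gas5 isoforms that start in the first 1000 nt lie between -0.29 and 0.16 and the 7 later ones between 1.03 and 1.98, whereas in Snhg1 all 18 are above 0.

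Snhg12 hosts H/ACA snoRNAs together with Snord99, and 3 of its 6 transcripts tested were called higher and 0 lower (3 and 2 at an unadjusted p under 0.05). Spliced ENSMUST00000153474.8 (chr4:132308678-132311024, 5 exons, no snoRNA) measured 4.37, 4.86 and 4.76 CPM in standard RIBO-seq and 3.76 and 2.80 CPM in AHARIBO RIBO-seq. Both AHARIBO libraries lay below the standard ones, with a log2 fold change of -0.49 ± 0.21 (SE) that missed the threshold (adjusted p = 0.188, edgeR). ENSMUST00000182826.1 (chr4:132310187-132311024), the short isoform that contains Snora61, measured 1.23, 1.55 and 0.952 CPM against 4.64 and 6.29 CPM and was 4.21-fold higher (log2 2.07 ± 0.26 SE, adjusted p = 1.72e-07, edgeR), the largest fold change of any host transcript tested. Snora61, a guide of pseudouridylation, had 8, 10 and 5 counts in standard RIBO-seq and 44 and 50 in AHARIBO RIBO-seq, of the 11, 14, 6, 53 and 63 counts of this isoform, which left 0.312 ± 0.143 CPM (SD, n = 3) against 1.04 ± 0.361 CPM (SD, n = 2). It measured 0.931 ± 0.158 (SD, n = 3) against 4.42 ± 0.808 CPM (SD, n = 2), 4.58-fold higher (adjusted p = 8.38e-07). With duplicates kept the log2 fold changes were larger, at 3.48 for Snora61 (2.20 without duplicates) and 3.11 for ENSMUST00000182826.1, and both stayed called with any 1 library left out.

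Among the other Snhg12 products, ENSMUST00000128131.1, which contains Snora44, was 2.23-fold higher (adjusted p = 0.00805, edgeR). Snora44 itself had means of 1.28 and 2.59 CPM and did not pass the test (adjusted p = 0.0598), although it did when transcripts were not filtered (adjusted p = 0.0484), with library size in place of TMM (0.0495) and with duplicates kept (log2 1.32, adjusted p = 0.0278). Snora16a, which no exon of the transcripts with determined exons covers, measured 0.112, 0.662 and 0.317 against 1.57 and 1.90 CPM and was 4.53-fold higher (log2 2.18 ± 0.53 SE, adjusted p = 0.00906), with 1 to 6 counts per standard library. Snord99 was at 0.636 against 1.07 CPM (adjusted p = 0.453), and was called higher when duplicates were kept (log2 2.12, adjusted p = 0.00491). ENSMUST00000126380.2 was the most abundant Snhg12 transcript and was 1.47-fold higher (5.94, 6.95 and 6.50 against 9.19 and 9.89 CPM, adjusted p = 0.0235), but its exons differ between annotation versions, so its snoRNA content was not determined. It was not called without standard replicate 1, AHARIBO replicate 1 or AHARIBO replicate 2 (adjusted p = 0.138, 0.119 and 0.0925), and Snora16a was not either, whereas ENSMUST00000128131.1 was not called without AHARIBO replicate 1. With duplicates kept the log2 fold change of ENSMUST00000126380.2 was 1.37, against 0.56.

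**Figure D3:**
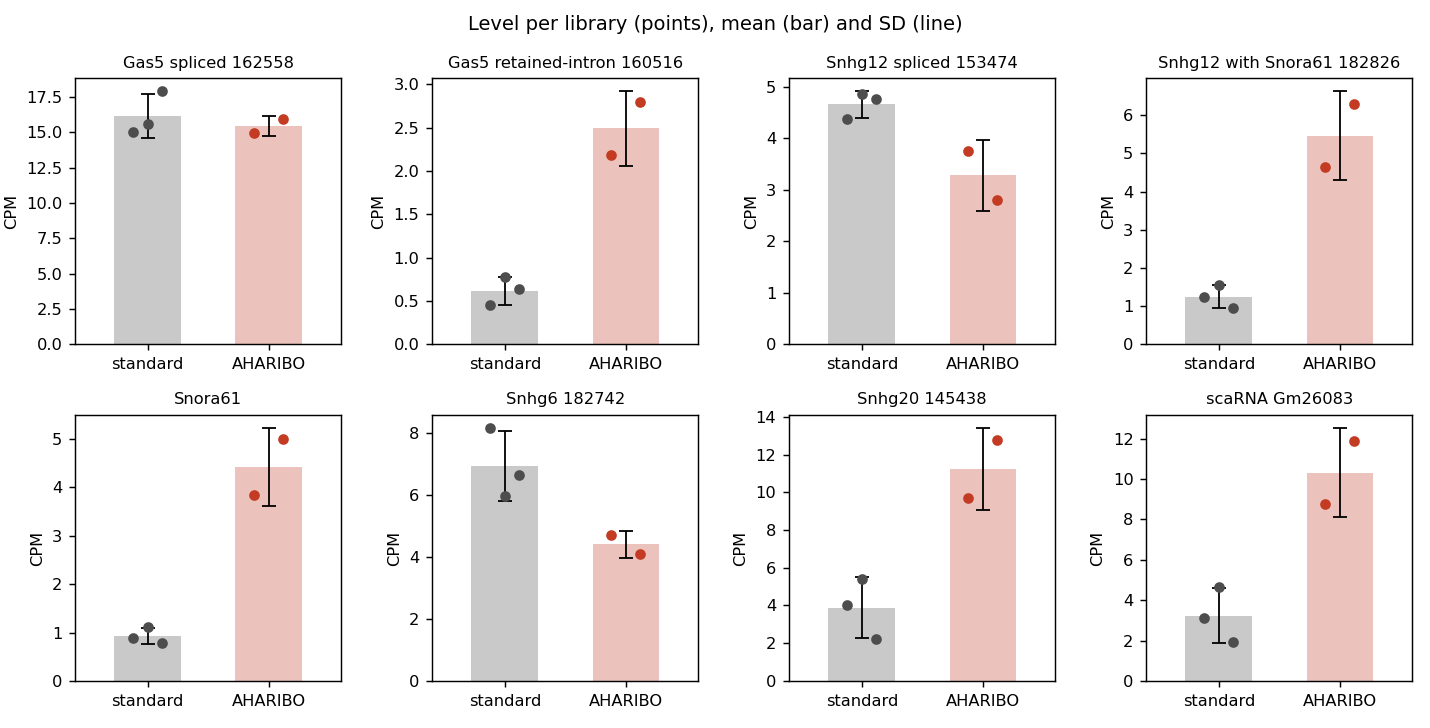
Levels in CPM of 8 transcripts in the 3 standard and 2 AHARIBO RIBO-seq libraries, with bars for the mean, lines for the SD and points for the libraries. The spliced Gas5 isoform and the snoRNA-free Snhg12 and Snhg6 isoforms overlap or are lower in AHARIBO RIBO-seq, whereas Gas5 ENSMUST00000160516.1, Snhg12 ENSMUST00000182826.1, Snora61, Snhg20 ENSMUST00000145438.1 and Gm26083 are higher in both AHARIBO libraries than in any standard library.

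In Snhg20 most host counts lay on the small RNA inside. ENSMUST00000182811.1 (chr11:117076802-117078954, a transcript of 1 exon) measured 4.15, 5.85 and 2.70 CPM in standard RIBO-seq and 10.9 and 13.3 CPM in AHARIBO RIBO-seq, 2.73-fold higher (log2 1.45 ± 0.17 SE, adjusted p = 4.21e-08, edgeR). ENSMUST00000145438.1 was 2.74-fold higher (adjusted p = 1.8e-07). The scaRNA Gm26083 held 77.8%, 85.7% and 85.7% of the counts of ENSMUST00000145438.1 in standard RIBO-seq and 90.1% and 93.0% in AHARIBO RIBO-seq. What was left came to 8, 7, 2, 11 and 9 counts, a mean of 0.662 against 0.931 CPM. For ENSMUST00000182811.1 it came to 9, 11, 5, 25 and 14 counts, a mean of 1.01 ± 0.210 CPM (SD, n = 3) against 1.79 ± 0.558 CPM (SD, n = 2). Gm26083 alone measured 3.14, 4.64 and 1.90 against 8.75 and 11.9 CPM and was 3.03-fold higher (log2 1.60 ± 0.19 SE, adjusted p = 7.31e-08). With duplicates kept, log2 fold changes were 2.77 for Gm26083, 2.67 for ENSMUST00000182811.1 and 2.69 for ENSMUST00000145438.1, and these 3 stayed called with any 1 library left out. ENSMUST00000149822.1, the third Snhg20 transcript, was at 0.878 against 0.868 CPM (adjusted p = 0.985).

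Snhg3 hosts the paralogues Snora73a and Snora73b, H/ACA snoRNAs also known as U17 that act in cleavage of the ribosomal RNA precursor. Of the transcripts that contain neither, that with the highest mean over the 5 libraries, ENSMUST00000151374.1 (chr4:132351934-132353633), measured 6.61, 7.84 and 4.44 CPM against 5.25 and 6.99 CPM, with overlapping ranges (adjusted p = 0.835, edgeR). ENSMUST00000141090.7, whose exon covers part of Snora73a, had the highest mean of the gene over the 5 libraries, though not in standard RIBO-seq alone, and was 1.54-fold higher (6.50, 6.07 and 5.08 against 8.31 and 10.2 CPM, adjusted p = 0.0144). Snora73a and Snora73b were 2.22-fold (adjusted p = 0.000104) and 1.96-fold higher (5.17e-05). With duplicates kept, log2 fold changes were 2.58 for Snora73a (1.15 without), 2.19 for Snora73b (0.97 without) and 2.04 for ENSMUST00000141090.7 (0.62 without). Both snoRNAs stayed called with any 1 library left out, and the host transcript did not without standard replicate 3 or AHARIBO replicate 2. Their sequences of 205 nt are identical at 198 positions, so that reads may count for both. The opposite-strand gene Gm17300, which lies over both, had 137, 142 and 79 counts in standard and 250 and 250 in AHARIBO RIBO-seq, against 73, 75, 52, 181 and 182 for the snoRNA pair. The study states that antisense reads were removed, yet Gm17300 had more counts than the pair in every library. Duplicates were 37.0% of its reads in standard and 74.4% in AHARIBO RIBO-seq. Whether antisense reads remained was not tested.

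Snhg8, Snhg15 and Snhg5 had 0 calls in 3, 3 and 5 transcripts tested (edgeR, with 0, 1 and 1 at an unadjusted p under 0.05, and 0 by DESeq2). Snhg8 spliced ENSMUST00000196466.1 (chr3:123507552-123508404) measured 11.3, 10.7 and 12.1 CPM against 9.45 and 10.9 CPM (log2 -0.16 ± 0.13 SE, adjusted p = 0.574, edgeR). Its retained-intron form ENSMUST00000198509.1, which contains the H/ACA snoRNA Snora24, measured 13.3, 13.6 and 15.2 against 13.4 and 15.1 CPM (adjusted p = 0.942). Snora24 took 20.8% to 24.4% of the counts of that form in standard RIBO-seq and 32.5% and 33.3% in AHARIBO RIBO-seq. On its own it was at 3.17 ± 0.143 (SD, n = 3) and 4.68 ± 0.305 CPM (SD, n = 2), a difference that did not pass the test (adjusted p = 0.123). With duplicates kept, both were called higher, Snora24 by 1.47 (adjusted p = 0.000379) and the retained-intron form by 0.64 on the log2 scale (adjusted p = 0.00547).

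Snhg15 carries the H/ACA snoRNA Snora9 within an intron that ENSMUST00000134527.1 retains, although its annotated type is not retained-intron. This transcript measured 12.2, 11.5 and 11.9 CPM against 11.5 and 12.7 CPM (adjusted p = 0.955, edgeR), and with duplicates kept was called higher (log2 0.71, adjusted p = 0.00312). Spliced ENSMUST00000147762.7 measured 11.3, 9.49 and 10.9 against 8.22 and 8.29 CPM, below in both AHARIBO libraries without passing the test (log2 -0.35 ± 0.14 SE, adjusted p = 0.152). Snora9 was 2.14-fold higher (1.57, 2.43 and 1.75 against 3.67 and 4.69 CPM, adjusted p = 0.00606), with a log2 fold change of 1.94 with duplicates kept against 1.10, and was not called without standard replicate 1 or AHARIBO replicate 2. The counts of ENSMUST00000134527.1 beyond Snora9 were 9.95 ± 0.815 CPM (SD, n = 3) in standard and 7.89 ± 0.143 CPM (SD, n = 2) in AHARIBO RIBO-seq, close to the snoRNA-free isoform.

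Snhg5 is the host of Snord50a and Snord50b. Spliced ENSMUST00000180563.8 (chr9:88521052-88522890) measured 5.71, 7.06 and 7.93 CPM against 6.39 and 8.49 CPM (adjusted p = 0.774, edgeR), and retained-intron ENSMUST00000182872.2, which covers Snord50a, measured 5.94, 7.95 and 8.57 against 7.26 and 10.3 CPM (adjusted p = 0.468). Snord50a and Snord50b were both at 0.359 CPM in standard RIBO-seq and at 0.862 and 1.01 CPM in AHARIBO RIBO-seq (adjusted p = 0.332 and 0.211).

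Snhg6 was the host gene called lower in AHARIBO RIBO-seq. ENSMUST00000182742.1 and ENSMUST00000182580.7 had the same counts in each library, at 8.18, 5.96 and 6.66 CPM in standard and 4.72 and 4.09 CPM in AHARIBO RIBO-seq, 1.57-fold lower (log2 -0.65 ± 0.18 SE, adjusted p = 0.0286, edgeR). ENSMUST00000182498.7 was 1.59-fold lower (adjusted p = 0.0251). The 3 called transcripts are in large part the same reads, and none contains a snoRNA. Without standard replicate 1, AHARIBO replicate 1 or AHARIBO replicate 2, they were not called. Snord87, the C/D snoRNA of Snhg6, stayed under 1 CPM, with 0.186 against 0.787 CPM. Duplicates had been 54.7% of the reads of ENSMUST00000182742.1 in standard and 39.1% in AHARIBO RIBO-seq. With duplicates kept, these transcripts were called lower too, with log2 fold changes of -1.09 and -1.11 (adjusted p = 0.0154 and 0.0139).

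In the 5 genes with a suitable pair of isoforms, most counts of a spliced transcript were lacking from an isoform without its 5′ stretch. In each an isoform lacks a 5′ stretch of a spliced transcript but holds the rest of its sequence apart from at most 20 nt at the 3′ end, so that counts beyond those of this partner come from reads that touch the stretch or a splice junction that the partner lacks. The pairs were chosen after their values were seen and have no test. Relative to the length of the stretch, Snhg6 was the most pronounced. The first 98 nt of ENSMUST00000182742.1 make up 24.5% of its length, and the partner without them had 1, 2 and 1 counts in standard RIBO-seq and 8 and 5 in AHARIBO RIBO-seq, against 73, 54, 42, 54 and 41 for the transcript. Thus 96.3% to 98.6% of the counts in standard and 85.2% to 87.8% in AHARIBO RIBO-seq exceeded those of the partner.

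The other pairs differed in degree. In Gas5, where the stretch is the first 182 nt (52.6%) of ENSMUST00000159663.7, counts beyond the partner were 95.4% to 96.4% of the counts in standard and 86.5% and 91.3% in AHARIBO RIBO-seq. For the first 282 nt of Snhg15 (47.6% of the transcript) they were 92.1% to 98.8% and 94.7% to 96.4%. The first 212 nt of Snhg1 ENSMUST00000206155.1 (35.0% of its length) gave 89.0% to 95.6% and 88.1% to 88.7%, and the first 315 nt of Snhg5 ENSMUST00000182232.7 (40.3%) gave 74.1% to 92.5% and 60.7% to 74.5%. The partner holds a snoRNA in Gas5, Snhg1 and Snhg5, whose reads count for the partner. The share was lower in both AHARIBO libraries than in all standard libraries for Snhg6, Gas5 and Snhg1, and overlapped for Snhg15 and Snhg5. In Snhg1 the counts beyond the partner were nevertheless higher with AHARIBO, at 10.7 ± 1.35 against 12.9 ± 1.73 CPM (SD, n = 3 and n = 2). Their means were lower in Snhg6 (6.77 against 3.81 CPM), Gas5 (15.0 against 12.7), Snhg15 (9.98 against 7.89) and Snhg5 (3.69 against 3.36).

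**Figure D4:**
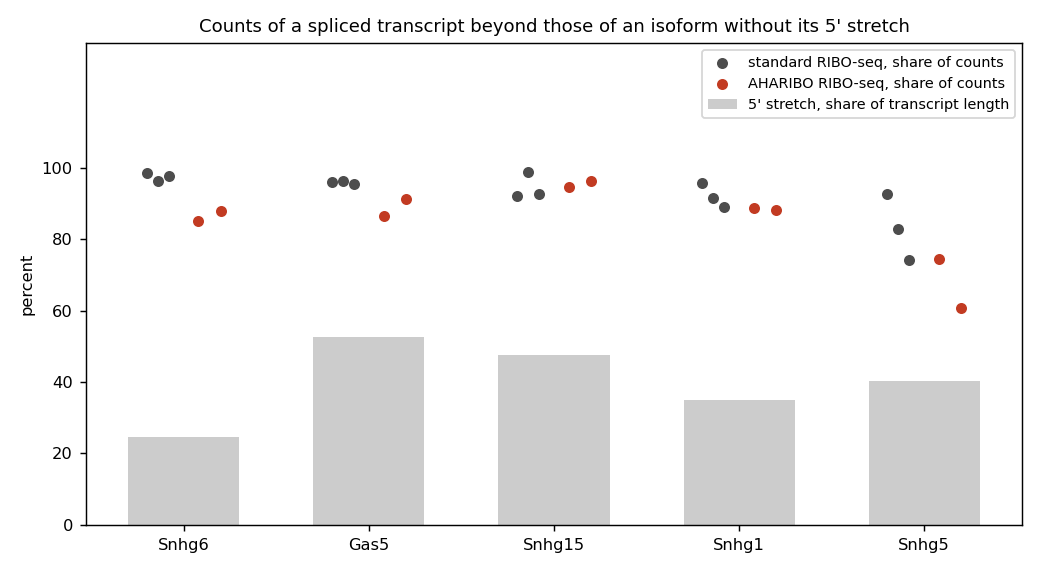
Percent of the counts of a spliced host transcript that exceed those of an isoform lacking its 5′ stretch (points, 3 standard and 2 AHARIBO RIBO-seq libraries), with the stretch as a percent of the transcript length (bars). All points lie above the bars, from 60.7% to 98.8% of counts on 24.5% to 52.6% of the length.

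Summed over the 38 retained-intron isoforms, the share of all host counts was 55.5%, 55.4% and 58.5% in standard RIBO-seq and 57.4% and 59.3% in AHARIBO RIBO-seq. A read counts in full on each isoform it matches, so this share depends on how many isoforms carry the label. It does not give the part of host footprints that came from retained-intron RNA. The mean difference of 1.89 percentage points was close to the SD among the standard libraries of 1.78 points, and the ranges overlapped. It turned to -2.18 points when retained-intron isoforms that cover a snoRNA were left out, and to -3.93 points when duplicate reads were kept. By gene the share went from 71.4% ± 0.447 to 75.3% ± 1.29 in Snhg1, from 39.1% ± 0.912 to 42.1% ± 0.392 in Snhg8, from 72.9% ± 0.268 to 74.3% ± 0.594 in Gas5 and from 56.1% ± 2.43 to 57.6% ± 1.83 in Snhg5 (SD, n = 3 and n = 2).

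Of the 31 small RNA transcripts inside the hosts, 23 were tested, 10 were called higher and 0 lower, and all 23 had a log2 fold change above 0, with a median of 1.10. By DESeq2 0 were called, with 11 at an unadjusted p under 0.05. Without standard replicate 1, AHARIBO replicate 1 or AHARIBO replicate 2, edgeR called 5 each. Snora16a gave 2 of the 10 calls from the same reads. Some small RNAs, among them the called Gm25789, Gm25894, Gm24452 and Snora16a, reached the 1 CPM needed for testing only in AHARIBO libraries. The direction and the median of those tested therefore depend in part on the filter. Without a filter, 30 were tested by edgeR, of which 12 were called higher and 0 lower. Of snoRNAs and scaRNAs at all loci, taken through the same 1 CPM filter, 35.6% of 180 tested transcripts were called higher, with a median of 1.15 (edgeR). Duplicates were frequent among them. Counting each snoRNA a single time, duplicates made up 45.7% to 59.1% of their reads in standard RIBO-seq and 71.4% and 79.0% in AHARIBO RIBO-seq, against 44.7% to 54.1% and 49.7% and 55.3% for host transcripts without a snoRNA. The part of duplicate removal in these values was not tested beyond refitting with duplicates kept, where 14 of 21 were called and the log2 fold change of each of the 10 called without duplicates was larger.

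Of 11 other non-coding host genes listed, 9 were found, with 44 transcripts of which 20 were tested, 3 were called higher and 0 lower (3 and 2 at an unadjusted p under 0.05, 0 calls by DESeq2), against 2.27% and 2.24% of all transcripts, and the median log2 fold change was -0.02. The split was 2 higher and 1 lower without standard replicate 2, and 2 and 2 without AHARIBO replicate 2. Dancr, a host of a snoRNA and a miRNA, had the largest change, with ENSMUST00000066220.3 at 2.91, 3.64 and 2.38 CPM against 9.80 and 11.2 CPM (3.42-fold, adjusted p = 4.83e-10, edgeR). Snhg17 ENSMUST00000186993.1 was 3.26-fold higher (adjusted p = 0.0142). With duplicates kept, Dancr had a log2 fold change of 3.03 against 1.78, and Snhg17 was not called (adjusted p = 0.0827), nor was it without standard replicate 2, AHARIBO replicate 1 or AHARIBO replicate 2. Their snoRNA content was not determined.

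Proteins of NMD and of snoRNA particles were examined beside the hosts. Among transcripts of NMD factors (20 genes, 90 tested), 4 were called higher and 2 lower, against 2.27% and 2.24% of all transcripts, with a median of 0.05, and 2 and 0 were called without standard replicate 1 and AHARIBO replicate 1. Smg1, the kinase that phosphorylates Upf1, was 1.42-fold higher in ENSMUST00000179331.8 (adjusted p = 0.0015, edgeR). The termination factor Gspt1 (ENSMUST00000229660.1, retained-intron) was 1.28-fold lower and Eif4a3 of the exon junction complex (ENSMUST00000134743.1) 1.27-fold lower (adjusted p = 0.00753 and 0.0303). Among proteins that bind or assemble snoRNAs (17 of 18 symbols found, 110 transcripts tested), 0 transcripts were higher and 6 lower (14 and 16 at an unadjusted p under 0.05), with a median of 0.0079. The split depended on the setting, with 2 higher and 4 lower under library size scaling, 3 and 2 without standard replicate 3, 1 and 5 without AHARIBO replicate 2 and 1 and 1 with the replicate block. Without standard replicate 1, 1 was called, without AHARIBO replicate 1, 0 were, and 1 with duplicates kept. The H/ACA assembly factor Naf1 was 1.31-fold lower (ENSMUST00000118009.1, adjusted p = 0.0036), Fbl, the methyltransferase of C/D particles, 1.35-fold lower in a retained-intron isoform (ENSMUST00000207397.1, adjusted p = 0.00779), and Ruvbl2 and Rrp9 1.26-fold and 1.51-fold lower (ENSMUST00000211666.1 and ENSMUST00000127400.1, adjusted p = 0.0141 and 0.0325). Each NMD and snoRNP transcript named here was not called without AHARIBO replicate 1.

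Counts from 1 to 30 per library stand behind many of the changed transcripts and snoRNAs, and the test rests on 3 against 2 libraries. DESeq2 called 2 host transcripts, both of Snhg1, and gave an adjusted p to 3 of the 24 host transcripts and 0 of the 10 snoRNAs that edgeR called.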

How the data were processed

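Gas5 and Snhg transcripts were examined in mESC libraries grouped by their labels, 3 of standard and 2 of AHARIBO RIBO-seq. The authors trimmed reads with Trimmomatic 0.36, discarded reads shorter than 20 nt, removed rRNA and tRNA reads, mapped the rest to Gencode M17 transcripts (GRCm38.p6) with STAR, and removed antisense and duplicate reads. They deposited counts per transcript without normalization, with and without duplicates. How reads that match several transcripts were counted is not given in the sources used here. Counts without duplicates were used. Reads carry no molecular identifiers, so separate footprints that share both ends are lost as duplicates. The floor reflects counting alone, and the SDs and SEs reflect variation among these few libraries.

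Symbols, types, exons and snoRNA positions came from Gencode M21, which matched 99.8% of transcripts. Counts were scaled by TMM over all transcripts, those with 1 CPM in at least 1 library were tested with edgeR 4.0.16 (quasi-likelihood, R 4.3.3), and p-values were adjusted by Benjamini-Hochberg over all tested. Standard errors are derived from the fold change and the F statistic. DESeq2 1.42.0, other normalizations and filters, duplicates kept, a replicate block, 1 transcript per gene and leaving out each library were alternatives. On simulated counts of 65298 transcripts for this comparison, with 200 changed, edgeR recovered 92% of 2-fold and 100% of 4-fold changes with 10 false calls, and DESeq2 72% and 96% with 1. The changed transcripts were drawn only from those above a minimum mean count, and transcripts were simulated independently. These rates therefore do not cover scarce snoRNAs and isoforms or isoforms that share reads.

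Members and lists were chosen with earlier results of these data known. Named transcripts are, per host gene, the most abundant spliced and retained-intron ones and all called ones, the snoRNAs reaching 1 CPM, and up to 5 called genes per other list. Others (the snoRNAs under 1 CPM, the isoform pairs of the 5′ comparison, Gm17300, the snoRNA-free Gas5, Snhg1, Snhg3, Snhg12 and Snhg15 isoforms and Snhg20 ENSMUST00000149822.1, whose snoRNA content was not determined) were named after their values were seen. A called transcript that this rule names among the NMD factors is not reported here.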

Additional observations from a re-analysis of the deposited data

How the results depend on the processing

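All 24 called host transcripts kept their direction wherever they were fitted, and of them 24, 24, 24 and 23 remained called with library size or RLE in place of TMM, without a filter and with filterByExpr, 22 with duplicates kept and 22 with the replicate block. Leaving out each library, host transcripts called ranged from 12 to 22 (24 with all), retained-intron ones from 8 to 14, spliced ones from 4 to 9, snoRNAs from 5 to 9, other host genes from 2 to 4, NMD factors from 0 to 8, snoRNP proteins from 0 to 6 and all transcripts from 510 to 3829 (3021 with all). DESeq2 called 312 of all transcripts, 2 host, 2 retained-intron and 0 spliced host transcripts, 0 snoRNAs, 0 transcripts of other hosts, 0 of NMD factors and 1 of snoRNP proteins. With 1 transcript per gene these were 782 of all transcripts, 5 host transcripts, 1 of other hosts, 1 of NMD factors and 1 of snoRNP proteins, since fewer were tested. Library size in place of TMM gave 1978 higher and 1048 lower among all transcripts, against 1520 and 1501, and left 22 and 3 among host transcripts. With duplicates kept, 1 transcript of snoRNP proteins was called. The replicate numbers were not taken to pair the libraries. The study describes standard RIBO-seq as run on the input, but matches no library to another, and same-numbered ones correlated at 0.0423 and -0.0762 in their deviations. The deviations of the 2 AHARIBO libraries mirror each other, so these values are not separate checks and cannot show whether libraries were paired. The replicate block gave 1792 of all transcripts, 23 host transcripts, 3 of NMD factors and 2 of snoRNP proteins, ended the calls of Snhg3 ENSMUST00000141090.7 (adjusted p = 0.0533), Snhg1 ENSMUST00000205825.1 (0.0912), Rrp9 (0.0656), Eif4a3 (0.131), Fbl, Ruvbl2 and Gspt1, and turned Gas5 ENSMUST00000162558.7 to 0.0165, an uncalled value.

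The difference in the retained-intron share reversed to -3.93 points with duplicates kept and to -2.18 points without the isoforms that cover a snoRNA, and ranged from 0.976 to 2.91 over the libraries left out. Of 65 named transcripts and snoRNAs, those that changed sign were not called in the analysis as reported. Snhg8 ENSMUST00000196466.1 went to 0.0375 with duplicates kept. Leaving out each library, log2 fold changes ranged from -0.25 to 1.07 for Gm26224, -0.13 to 0.28 for Snord80, -0.046 to 0.0969 for Snhg15 ENSMUST00000134527.1, -0.0118 to 0.32 for Gas5 ENSMUST00000161229.7, -0.10 to 0.0145 for Gas5 ENSMUST00000162558.7, -0.0875 to 0.32 and -0.0199 to 0.48 for Snhg5 ENSMUST00000180563.8 and ENSMUST00000182872.2 and -0.0545 to 0.11 for Snhg8 ENSMUST00000198509.1. The cause of these shifts was not tested. At this depth a snoRNA with a few counts per library can show only large differences.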
